A study of Mus musculus with 16 samples.

Results

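Transcript levels of 9 genes for adipokines and their receptors were examined in the mammary fat pad contralateral to an E0771 tumor. The members, Lep, Lepr, Adipoq, Adipor2, Retn, Rbp4, Nampt, Rarres2 and Apln, were taken by gene symbol from a table of 23179 genes, and all 9 were found in it. The tissue came from female C57BL/6NCrl mice that were 8 weeks old on arrival, and each group held 4 libraries. CON-LFD mice ate a low-fat diet with 10% of energy from fat throughout and had a sham operation. The other mice ate a 60% fat diet for 15 weeks until obese. Of these, DIO-HFD mice then stayed on that diet and DIO-LFD mice were moved to the low-fat diet, both with a sham operation. DIO-VSG mice had a vertical sleeve gastrectomy, in which part of the stomach is cut away, and were also moved to the low-fat diet. All 16 mice received E0771 mouse mammary cancer cells in the opposite fat pad at week 22, and tissue was taken 4 weeks later. Every group, the controls included, thus carried a tumor, and no tumor-free mouse entered a comparison.

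Adipokines are proteins that fat tissue releases to act on other organs or on its own cells. Leptin (Lep) reports fat stores to the brain through the leptin receptor (Lepr), and adiponectin (Adipoq) acts on liver and muscle through receptors that include the one encoded by Adipor2. Resistin (Retn) is made by mouse adipocytes and opposes insulin action, and retinol-binding protein 4 (Rbp4) carries vitamin A in blood. Nampt encodes the rate-limiting enzyme of NAD salvage, which is also found outside cells under the name visfatin, Rarres2 encodes the chemoattractant chemerin and Apln encodes apelin, a peptide that acts on blood vessels. In obesity, leptin is known to go up with fat mass while adiponectin in blood goes down.

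The promoters of the 4 members with the lowest P values described further on, Lep, Apln, Rbp4 and Nampt, are shown so that their sequences can be set against one another. Each line gives the 250 bases before the transcription start in RefSeq (GRCm38.p6), read 5′ to 3′ on the strand of the gene. Capitals mark matches to 4 motifs, each searched on both strands. They were the C/EBP motif TTGCGCAA, the TATA box and the PPAR:RXR direct repeat. The fourth was ACGTG, the core of the hypoxia response element, which appears as its reverse complement where it lies on the opposite strand. For Rbp4, which has 2 entries, the entry with matches is shown.
Lep promoter (chr6:29059971-29060220, plus strand): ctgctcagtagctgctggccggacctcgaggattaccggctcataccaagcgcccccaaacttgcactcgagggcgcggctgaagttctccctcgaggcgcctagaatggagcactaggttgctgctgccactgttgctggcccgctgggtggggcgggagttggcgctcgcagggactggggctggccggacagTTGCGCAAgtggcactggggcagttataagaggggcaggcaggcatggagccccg
Apln promoter (chrX:48034854-48035103, minus strand): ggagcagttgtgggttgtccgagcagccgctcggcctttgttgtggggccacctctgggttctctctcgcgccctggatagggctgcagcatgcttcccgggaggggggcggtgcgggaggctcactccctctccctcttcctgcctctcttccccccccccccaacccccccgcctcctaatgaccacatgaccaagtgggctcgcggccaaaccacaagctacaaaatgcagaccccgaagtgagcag
Rbp4 promoter (chr19:38124812-38125061, minus strand): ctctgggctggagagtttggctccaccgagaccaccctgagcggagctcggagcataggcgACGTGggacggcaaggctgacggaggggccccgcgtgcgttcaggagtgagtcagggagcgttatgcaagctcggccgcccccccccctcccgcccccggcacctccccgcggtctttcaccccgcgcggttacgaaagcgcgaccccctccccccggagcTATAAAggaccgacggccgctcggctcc
Nampt promoter (chr12:32820085-32820334, plus strand): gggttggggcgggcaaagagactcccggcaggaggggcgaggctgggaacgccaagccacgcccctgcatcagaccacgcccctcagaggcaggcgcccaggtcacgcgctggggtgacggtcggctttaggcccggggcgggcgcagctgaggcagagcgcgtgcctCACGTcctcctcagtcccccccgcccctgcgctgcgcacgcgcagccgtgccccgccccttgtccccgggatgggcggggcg
The Lep promoter held TTGCGCAA beginning 55 bases before the start (position -55), a motif found in 0.164% of 32851 promoters of this length. The Rbp4 promoter held TATAAA at -28 and ACGTG at -189, and the Nampt promoter held ACGTG at -82. TATAAA was present in 12.4% and ACGTG in 16.6% of these promoters, so such matches were common. The promoters searched did not cover every chromosome. Only exact matches to the letters were marked, so a TATA box with other letters would not be seen. No match to any of the 4 motifs lay in the windows of Apln, Adipoq, Retn, Lepr and Adipor2, and the PPAR:RXR direct repeat, present in 0.0335% of promoters, was in none of the members' windows.

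Sequencing depth lay between 46907377 and 57610899 reads per library. The labelled tissue was checked against 17 adipocyte markers, none of them a member, and their summed level was 681857 to 2472578 normalized counts per library. Normalized counts here are reads divided by the size factor of their library. For each marker list a score was calculated per library, the average of the log2 deviations of its genes from their means over the 16 libraries. Several libraries stood apart. The B cell score was -5.87 and -4.03 in CON-LFD replicates 2 and 4 and -2.49 and -4.58 in DIO-HFD replicates 2 and 3, against -0.12 to 2.38 in the other 12. The summed counts of the 9 B cell markers ran from 322 to 77482 in CON-LFD, 1105 to 102737 in DIO-HFD, 18397 to 42078 in DIO-LFD and 69977 to 81296 in DIO-VSG. The adipocyte score was lowest, at -1.33, in DIO-HFD replicate 1. The skeletal muscle score was 4.0 in CON-LFD replicate 4, 6.08 in DIO-LFD replicate 4 and 3.32 in DIO-VSG replicate 2, and the hepatocyte score was 3.11 in DIO-LFD replicate 1. Leaving out the 4 libraries of low B cell score keeps 2 in CON-LFD and 2 in DIO-HFD. Values without them are given further on for the members and lists with an unadjusted P below 0.05 or without overlap. Apart from that and the scores used as covariates, the part of these differences in the results was not tested.

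Per kilobase of exon, which makes levels comparable between genes, Adipoq was the most abundant member, with a median of 48946 normalized counts per kilobase over the 16 libraries (range 22033 to 89450). Retn followed at 11298 (4043 to 20835), and its range did not overlap that of Adipoq. Lep had a median of 10804 (2779 to 70821) and Adipor2 of 5905 (2781 to 14124). The order of Retn and Lep by group means was not the same in every group, although their ranges overlapped in each. The mean per kilobase was 31937 for Lep and 8840 for Retn in DIO-HFD, 12420 and 12415 in CON-LFD, 15046 and 14318 in DIO-LFD, and 7935 and 10388 in DIO-VSG. Retn, Lep, Adipor2, Rbp4 (4562) and Rarres2 (2780) each overlapped the next in this order, as did Rarres2 and Nampt (1090, 755 to 2216). Lepr (213, 68.9 to 537) lay below Nampt without overlap and overlapped Apln (75.4, 41.3 to 527), the least abundant. By the ratio of highest to lowest library, Lep varied most (25.5-fold), followed by Apln (12.8-fold), and Nampt varied least (2.93-fold). By the SD of log2 values over the 16 libraries, Apln (1.09) was slightly above Lep (1.07), and Nampt and Adipoq were both at 0.46.

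**Figure D1:**
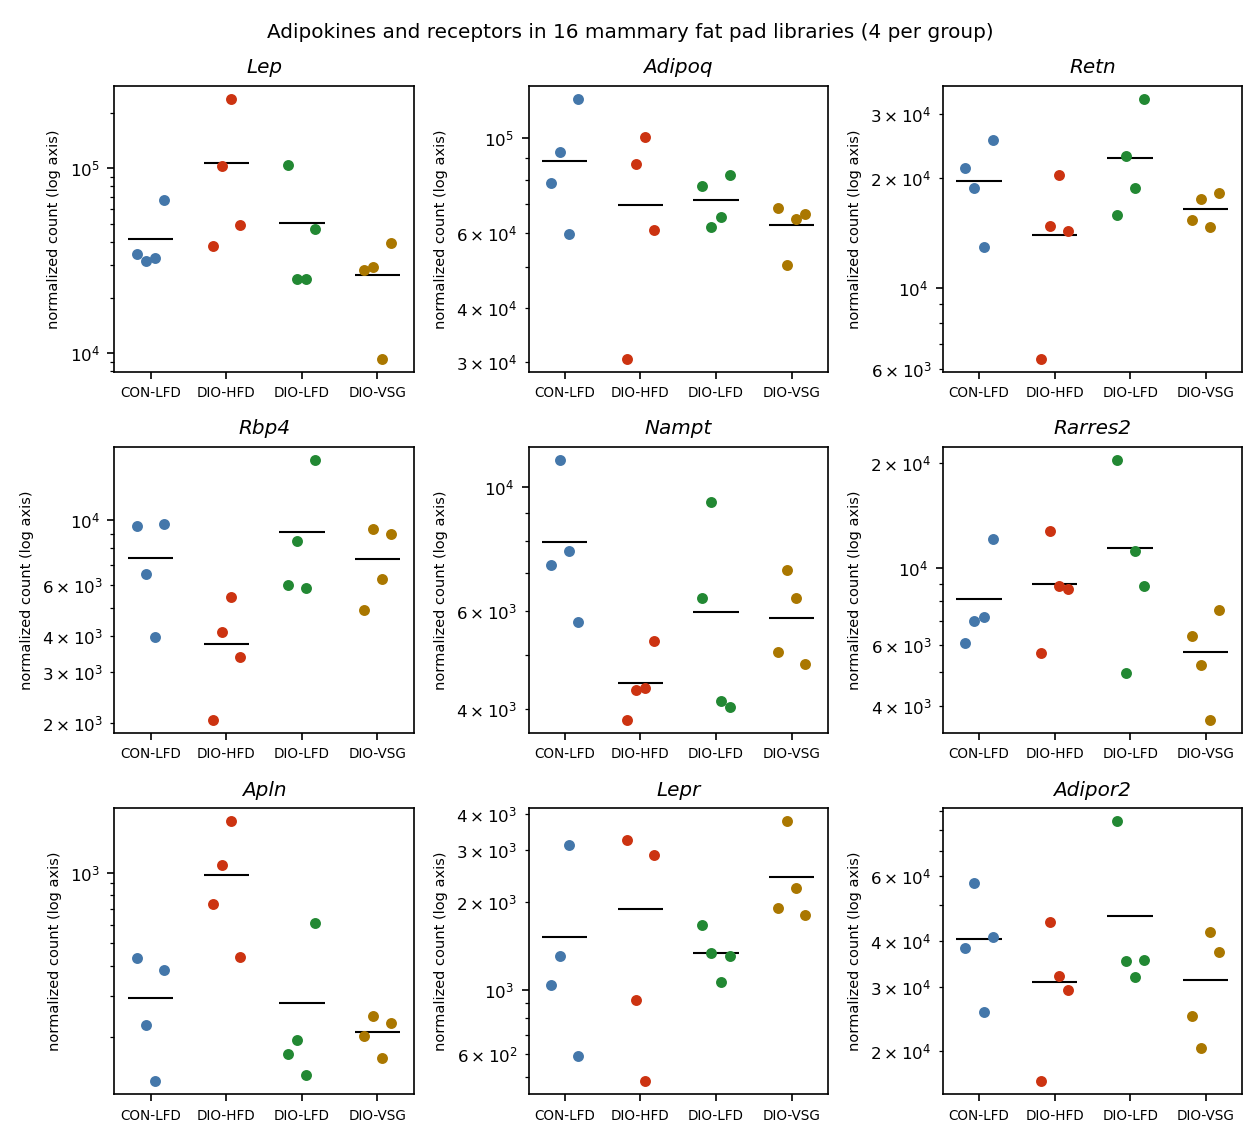
Normalized counts (log axis) of the 9 members in each of the 16 libraries, by group, with points in replicate order from left to right and a black line at the mean of 4. Apln in the 4 DIO-HFD libraries (438 to 1659) lies above all CON-LFD (130 to 434) and DIO-VSG (163 to 246) libraries, whereas Adipoq overlaps between all groups.

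Lep (GRCm38 chromosome 6, 29060220 to 29073877, plus strand) gave 34589, 31744, 32586 and 67714 normalized counts in CON-LFD replicates 1 to 4. In DIO-HFD it gave 37881, 103689, 237534 and 49364. DIO-LFD libraries held 104465, 25285, 25136 and 46975, and DIO-VSG libraries 28191, 29410, 9321 and 39535. The 3 highest libraries were DIO-HFD replicates 2 and 3 and DIO-LFD replicate 1, and the DIO-HFD range overlapped that of every other group. The pair of high DIO-HFD libraries was the pair with low B cell scores. The 3 highest libraries also had the highest endothelial scores, at 0.58, 0.73 and 0.94 in the order named. Over the 16 libraries Lep had r = 0.76 with the endothelial score (rho = 0.70, 0.69 within groups, 0.56 without the 2 libraries of most extreme score). With the B cell score it had r = -0.56, and the part of these scores was not tested. The group means were 41658 ± 17412 (SD, n = 4) in CON-LFD, 107117 ± 91560 in DIO-HFD, 50465 ± 37433 in DIO-LFD and 26614 ± 12600 in DIO-VSG.

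Apln (chromosome X, 48025146 to 48034853, minus strand) had the largest fold difference between DIO-HFD and the mean of the other groups among the members. Its normalized counts were 434, 225, 130 and 385 in CON-LFD and 736, 1075, 1659 and 438 in DIO-HFD. They were 169, 195, 138 and 612 in DIO-LFD and 201, 246, 163 and 229 in DIO-VSG. Every DIO-HFD library lay above every CON-LFD and DIO-VSG library, although the gap between 434 and 438 was small, and DIO-LFD replicate 4 lay within the DIO-HFD range. As with Lep, DIO-HFD replicate 3 was the highest of all 16 libraries.

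Rbp4 (chromosome 19, 38116629 to 38125281, minus strand) was measured at 9549, 6519, 3970 and 9739 normalized counts in CON-LFD and 2048, 4116, 5443 and 3372 in DIO-HFD. The counts were 5977, 8462, 5861 and 16160 in DIO-LFD and 4923, 9332, 6277 and 8958 in DIO-VSG. All DIO-LFD libraries were above all DIO-HFD libraries, while CON-LFD replicate 3 and DIO-VSG replicate 1 lay inside the DIO-HFD range. Retn (chromosome 8, 3655770 to 3660110, plus strand) had a similar ordering, with 21304, 18739, 12905 and 25469 counts in CON-LFD and 6384, 14744, 20364 and 14342 in DIO-HFD. Its counts were 15839, 22913, 18783 and 32899 in DIO-LFD and 15304, 17481, 14627 and 18197 in DIO-VSG. DIO-HFD replicate 1, the library with the lowest adipocyte score, was lowest for both genes, and DIO-LFD replicate 4, with the highest muscle score, was highest for both.

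Nampt (chromosome 12, 32819545 to 32853349, plus strand) was at 7253, 11198, 7686 and 5737 normalized counts in CON-LFD and at 3818, 4327, 4362 and 5283 in DIO-HFD. It was at 6323, 9419, 4130 and 4024 in DIO-LFD and at 5049, 7105, 6325 and 4805 in DIO-VSG. CON-LFD and DIO-HFD did not overlap, and the other groups lay across both. DIO-HFD was also the tightest group, with an SD of 610 around 4447.

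Rarres2 (chromosome 6, 48569696 to 48572789, minus strand) was counted at 6076, 7029, 7228 and 12110 in CON-LFD and 5664, 12743, 8851 and 8689 in DIO-HFD. Counts were 20462, 4980, 11208 and 8838 in DIO-LFD and 6351, 5250, 3635 and 7541 in DIO-VSG. DIO-LFD replicate 1, which was also the highest low-fat library for Lep, held the top value, and the groups overlapped throughout.

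Adipoq (chromosome 16, 23146536 to 23158028, plus strand) was present at 78362, 92919, 59538 and 123530 normalized counts in CON-LFD and 30428, 87069, 100491 and 60973 in DIO-HFD. It was present at 77441, 61906, 65523 and 82066 in DIO-LFD and 68644, 50432, 64592 and 66544 in DIO-VSG. No pair of groups was separated, and both low-fat groups of formerly obese mice were narrow, with ranges of 1.33-fold and 1.36-fold. Across the 16 libraries, which share groups and composition, Adipoq followed the adipocyte score (Pearson r = 0.88, Spearman rho = 0.75, 0.91 within groups and 0.73 without the 2 libraries of most extreme score). In bulk tissue, fewer adipocytes and less Adipoq RNA per adipocyte cannot be told apart.

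Among the receptors, Lepr (chromosome 4, 101717404 to 101815352, plus strand) gave 1040, 1303, 3136 and 591 normalized counts in CON-LFD and 3257, 924, 486 and 2896 in DIO-HFD. It gave 1667, 1330, 1058 and 1300 in DIO-LFD and 1898, 3782, 2223 and 1796 in DIO-VSG. The 4 DIO-VSG libraries were above the 4 DIO-LFD libraries, and CON-LFD and DIO-HFD overlapped both. In those wide groups, the libraries of low B cell score held 1303, 591, 924 and 486 counts and the remaining ones 1040, 3136, 3257 and 2896. Adipor2 (chromosome 6, 119353150 to 119417704, minus strand) had means of 40442 ± 13028 in CON-LFD, 30787 ± 11644 in DIO-HFD, 46747 ± 25183 in DIO-LFD and 31179 ± 10160 in DIO-VSG, and no groups separated.

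DIO-HFD was compared with CON-LFD to ask how obesity was reflected in these genes. Obesity and the current high-fat diet went together here and cannot be told apart. Apln was 3.28-fold higher in DIO-HFD, Nampt 1.75-fold lower and Rbp4 1.99-fold lower, and none of these differences passed adjustment over all genes. The log2 fold change of Apln was 1.72 (SE 0.50, limma adjusted P = 0.227), or 0.45 with array weights, which let libraries count unequally. For Nampt it was -0.81 (SE 0.26, limma adjusted P = 0.247), and for Rbp4 -0.99 (SE 0.39, limma adjusted P = 0.307). Thus 0 of 9 members passed the adjusted threshold of 0.05, which 0.0377% of the 21218 genes tested passed, and limma-voom also called 0. At an unadjusted P below 0.05 there were 3 of 9, against 12.9% of all genes (5.23% higher and 7.66% lower). Apln and Nampt were the 2 members without overlap between the groups, a pattern shown by 4.76% of genes. The remaining 6 members had log2 fold changes from -0.56 (Retn) to 1.06 (Lep), the latter with a 95% interval from -0.24 to 2.37. Lep was at 0.55 without DIO-HFD replicate 3, at 0.46 with array weights, at 0.37 without the 4 libraries of low B cell score and at 1.79 with the adipocyte score as a covariate. Retn was at -0.23 without DIO-HFD replicate 1 and at 0.01 with that covariate, and Nampt was at -0.53 with array weights. Without the 4 libraries of low B cell score, the log2 fold change was 1.25 for Apln, -0.73 for Nampt and -1.23 for Rbp4. Each had a limma adjusted P of 0.602, and the unadjusted P of Apln and Nampt was then above 0.05. That fit kept only 2 libraries in each of these groups, so a P above 0.05 in it does not show that a difference went away. Leaving out DIO-HFD replicate 1 took the Rbp4 difference to -0.73 and its unadjusted P above 0.05 (limma adjusted P = 0.505), and leaving out CON-LFD replicate 1 (-0.84) or 4 (-0.83) did the same to that P. With the adipocyte score as a covariate Rbp4 was at -0.43 (limma adjusted P = 0.573). Rbp4 also ran with the skeletal muscle score over the 16 libraries (r = 0.74, rho = 0.74, 0.70 within groups, 0.57 without the 2 libraries of most extreme score). The mean of that score was -1.66 in DIO-HFD, 0.68 in CON-LFD, 0.59 in DIO-LFD and 0.40 in DIO-VSG. Without the library of highest muscle score in each low-fat group in turn, Rbp4 differed by -0.83 in DIO-HFD against CON-LFD, 0.92 in DIO-LFD against DIO-HFD and 0.89 in DIO-VSG against DIO-HFD.

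Surgical weight loss was addressed by comparing DIO-VSG with DIO-HFD. These groups also differed in current diet, so surgery, weight loss and diet fat cannot be told apart. Apln was 4.18-fold lower and Lep 3.5-fold lower in DIO-VSG, whereas Rbp4 was 2.02-fold higher. On the log2 scale the difference was -2.06 for Apln (SE 0.50, limma adjusted P = 0.243) and -1.81 for Lep (SE 0.61, limma adjusted P = 0.288). That of Rbp4 was 1.02 (SE 0.39, limma adjusted P = 0.315). The mean endothelial score, with which Lep ran over the libraries, was 0.27 in DIO-HFD and -0.32 in DIO-VSG. Its part in the Lep difference was not tested. No member passed adjustment (0 of 9, with 0% of all genes, and 0 by limma-voom), and 3 of 9 had an unadjusted P below 0.05, against 13.2% of all genes. Apln alone had no overlap between these groups, as did 6.59% of genes. The remaining 6 members had log2 differences from -0.65 (Rarres2) to 0.69 (Lepr), and without the 4 libraries of low B cell score Rarres2 was at -0.35 and Lepr at -0.41. Lepr was at 0.17 without DIO-HFD replicate 3. With array weights Apln was at -1.22 and Lep at -1.20. Adding the adipocyte score as a covariate gave adjusted P values of 0.0217 for Apln (log2 difference -2.23) and 0.0316 for Lep (-2.07), in a fit that called 15.6% of all genes. Without DIO-HFD replicate 1 the Rbp4 difference was 0.75, with an unadjusted P above 0.05 (limma adjusted P = 0.22), as it also was without DIO-VSG replicate 2 (0.89) or 4 (0.91). Without the libraries of low B cell score, Lep differed by -0.88 (unadjusted P above 0.05, limma adjusted P = 0.831), Apln by -1.45 (limma adjusted P = 0.699) and Rbp4 by 1.44 (limma adjusted P = 0.685).

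Dietary weight loss was addressed by DIO-LFD against DIO-HFD, which shares its DIO-HFD libraries with both comparisons above. Weight loss and the lower fat content of the current diet cannot be told apart in it. Apln was 3.77-fold lower in DIO-LFD, and both vitamin A carrier and resistin transcripts were higher, Rbp4 by 2.36-fold and Retn by 1.69-fold. The log2 difference was -1.91 for Apln (SE 0.50, limma adjusted P = 0.35), 1.24 for Rbp4 (SE 0.39, limma adjusted P = 0.456) and 0.76 for Retn (SE 0.32, limma adjusted P = 0.537). Again 0 of 9 members passed adjustment by limma-trend or limma-voom, as did 0% of all genes, and 3 of 9 had an unadjusted P below 0.05 against 8.53% of genes. Rbp4 was the 1 member without overlap (4.51% of genes). Lep differed by -0.97 on the log2 scale, with a 95% interval from -2.28 to 0.34. Without DIO-HFD replicate 3 it was -0.46, and without the libraries of low B cell score it was -0.04. With array weights Apln was at -0.99 and Lep at -0.56. Without DIO-HFD replicate 1 the Retn difference was 0.42, with an unadjusted P above 0.05 (limma adjusted P = 0.658), as it also was without DIO-LFD replicate 2 (0.73) or 4 (0.56), and with the adipocyte covariate it was 0.28 (limma adjusted P = 0.591). With that covariate Rbp4 was at 0.76, with an unadjusted P above 0.05 (limma adjusted P = 0.291), and Lep at -1.59. Without the libraries of low B cell score the differences were -1.30 for Apln (limma adjusted P = 0.22), 1.66 for Rbp4 (limma adjusted P = 0.154) and 1.19 for Retn (limma adjusted P = 0.154).

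The 2 weight loss regimens were compared directly as DIO-VSG against DIO-LFD. Rarres2 was 1.82-fold lower in DIO-VSG (log2 difference -0.87, SE 0.38, limma adjusted P = 0.509). Lepr was 1.75-fold higher and did not overlap (0.81, SE 0.57, limma adjusted P = 0.57), as was the case for 18.8% of all genes. By limma-trend and limma-voom 0 of 9 members passed adjustment, as did 0% of genes, and 1 of 9 had an unadjusted P below 0.05 against 9.71% of genes. Without DIO-LFD replicate 1 the Rarres2 difference was -0.52, with an unadjusted P above 0.05 (limma adjusted P = 0.623), as it also was without DIO-LFD replicate 3 (-0.81) or DIO-VSG replicate 2 (-0.84) or 3 (-0.67). The B cell score was -0.12 to 1.10 in DIO-LFD and 1.85 to 2.07 in DIO-VSG, and with this score as a covariate the Lepr difference was 0.49 (limma adjusted P = 0.678). With the adipocyte score as a covariate it was 0.31 (limma adjusted P = 0.922). None of the 4 libraries of low B cell score belonged to these groups, and a fit without them gave 0.81 for Lepr, with an unadjusted P then below 0.05 (limma adjusted P = 0.197), and -0.87 for Rarres2 (limma adjusted P = 0.22). In that fit 4607 of 21218 genes had an unadjusted P below 0.05, against 2061 in the fit of all libraries. Lep differed by -0.84 with an interval from -2.14 to 0.47, which allows both a difference and none between the regimens, and it was -0.40 without DIO-LFD replicate 1, -0.39 without DIO-VSG replicate 3 and -0.49 with the adipocyte covariate.

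Relative to CON-LFD, neither DIO-LFD nor DIO-VSG held a member past an unadjusted P of 0.05. The shares of all genes past that limit were 6.26% and 17.8%. For adjusted P values, 0 of 9 members passed in both comparisons by limma-trend and limma-voom, with 0.00471% and 0% of all genes. No member was without overlap, against 3.53% and 7.02% of genes. In DIO-LFD the log2 differences ran from -0.46 (Nampt) to 0.36 (Rarres2). Rarres2 was at 0.02 without DIO-LFD replicate 1, at 0.69 without DIO-LFD replicate 2, at 0.57 without CON-LFD replicate 4 and at 0.60 without the libraries of low B cell score. Nampt was at -0.29 without CON-LFD replicate 2, at -0.30 without DIO-LFD replicate 4 and at -0.71 without DIO-LFD replicate 2. In DIO-VSG the log2 differences ran from -0.75 (Lep) to 0.88 (Lepr). Lep was at -0.30 without DIO-VSG replicate 3 and at -0.49 without CON-LFD replicate 4, and Lepr at 0.51 without CON-LFD replicate 4 and at 0.36 without the libraries of low B cell score. Adding the B cell score to the model put Lep at 0.07 and Lepr at -0.15, and with the adipocyte score Lep was at -0.28 and Lepr at 0.22. The 95% intervals remained wide, for Lep from -1.22 to 1.40 in DIO-LFD and from -2.05 to 0.56 in DIO-VSG.

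**Figure D2:**
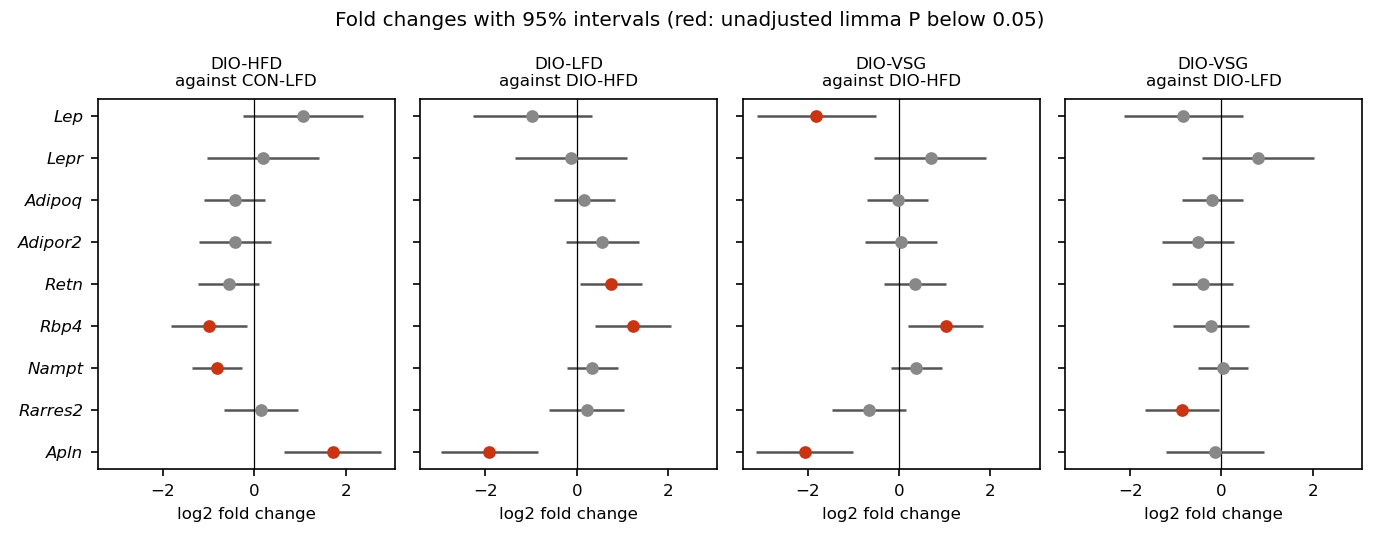
Log2 fold changes of the 9 members with 95% intervals in 4 comparisons, with red points at an unadjusted limma P below 0.05. Apln sits at 1.72 in DIO-HFD against CON-LFD and at -1.91 and -2.06 in DIO-LFD and DIO-VSG against DIO-HFD, and its interval crosses 0 in DIO-VSG against DIO-LFD.

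When DIO-HFD was set against the mean of the 3 low-fat diet groups, more members lay at the low end of the P values. Apln was 3.73-fold higher (log2 difference 1.90, SE 0.41, limma adjusted P = 0.118) and Lep 2.43-fold higher (1.28, SE 0.50, limma adjusted P = 0.336). Rbp4 was 2.12-fold lower (-1.08, SE 0.31, limma adjusted P = 0.218). Nampt was 1.42-fold lower (-0.51, SE 0.21, limma adjusted P = 0.367) and Retn 1.47-fold lower (-0.55, SE 0.26, limma adjusted P = 0.427). Thus 5 of 9 members had an unadjusted P below 0.05, against 11.6% of all genes, and 0 of 9 passed adjustment (0% of genes). By limma-voom 1 member, Apln, passed, with an adjusted P of 0.0467, as did 0.0943% of all genes. No member was without overlap between DIO-HFD and the 12 low-fat libraries (0.566% of genes). Without DIO-HFD replicate 3 the Lep difference was 0.77 (limma adjusted P = 0.702), and without the 4 libraries of low B cell score it was 0.43 (limma adjusted P = 0.757), both with an unadjusted P above 0.05, while Apln was 1.33 (limma adjusted P = 0.405). Without DIO-HFD replicate 2 the Lep difference was 1.17, also with an unadjusted P above 0.05 (limma adjusted P = 0.517). With array weights Apln was at 0.89, Lep at 0.74 and Nampt at -0.22. Without the libraries of low B cell score Rbp4 was -1.44 (limma adjusted P = 0.392), Retn -0.92 (limma adjusted P = 0.392) and Nampt -0.47, with an unadjusted P above 0.05 (limma adjusted P = 0.49). Leaving out DIO-HFD replicate 1 took Retn to -0.22, and its unadjusted P was below 0.05 in 4 of the 16 fits that left out 1 library. With the adipocyte score as a covariate Retn was at -0.14 (limma adjusted P = 0.715) and Rbp4 at -0.67 (limma adjusted P = 0.176), and Nampt was at -0.48 with an unadjusted P above 0.05 (limma adjusted P = 0.232). Leaving out 1 library, Nampt was below that limit in 13 of the 16 fits, the exceptions being the fits without DIO-HFD replicates 1, 2 or 3. In the F test over any difference among the 4 groups, Apln (limma adjusted P = 0.34) and Rbp4 (limma adjusted P = 0.384) were the 2 members with an unadjusted P below 0.05, against 12.7% of genes, and 0 passed adjustment by limma-trend or limma-voom, as did 0% of genes.

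The count ratio of Lep to Adipoq sets the leptin transcript against another adipocyte product of the same library. It was 0.441, 0.342, 0.547 and 0.548 in CON-LFD and 1.24, 1.19, 2.36 and 0.81 in DIO-HFD. In DIO-LFD it was 1.35, 0.408, 0.384 and 0.572, and in DIO-VSG 0.411, 0.583, 0.144 and 0.594. All DIO-HFD libraries were thus above all CON-LFD and DIO-VSG libraries, and DIO-LFD replicate 1 was the only low-fat library within the DIO-HFD range. The ratio was chosen after its values were seen and was not tested.

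**Figure D3:**
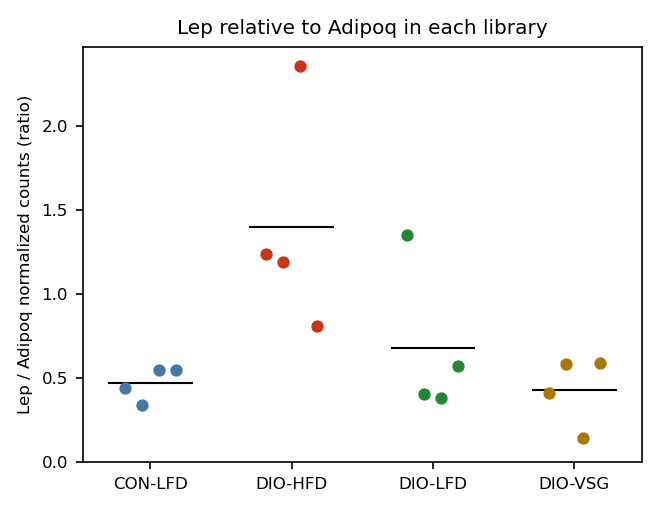
Ratio of Lep to Adipoq normalized counts in each library, by group, with a black line at the mean of 4. DIO-HFD libraries lie between 0.81 and 2.36, and all other libraries except DIO-LFD replicate 1 (1.35) lie at or below 0.594.

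Members also varied together across libraries, given here as descriptions over 16 libraries that share groups and tissue composition. Retn and Rbp4 had r = 0.90 (rho = 0.81, 0.90 within groups, 0.77 without the 2 most extreme libraries of Retn). Lep and Rarres2 had r = 0.71 (rho = 0.72, 0.72 within groups, 0.80 without the 2 most extreme libraries of Lep). Lep and Apln had r = 0.68 (rho = 0.65, 0.49 within groups), which was 0.47 without the 2 most extreme libraries of Lep and 0.34 without those of Apln. Adipoq and Lepr ran in opposite directions (r = -0.81, rho = -0.88, -0.84 within groups). Among 15930 genes, those most like Lep were Pdp1 (r = 0.96), Clip1 (r = 0.96) and Fstl3 (r = 0.95). Those most like Apln were Angpt2 (r = 0.90), which encodes the vessel ligand angiopoietin-2, Prnd (r = 0.89) and Mmp12 (r = 0.85). Nearest to Adipoq were Sort1 (r = 0.96), Car3 (r = 0.96) and Sil1 (r = 0.95), and nearest to Rbp4 were Aldoa (r = 0.94), Lss (r = 0.94) and Tecr (r = 0.93). Retn was most like Trhde (r = 0.93), Aamdc (r = 0.93) and the triglyceride synthesis gene Dgat2 (r = 0.92).

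**Figure D4:**
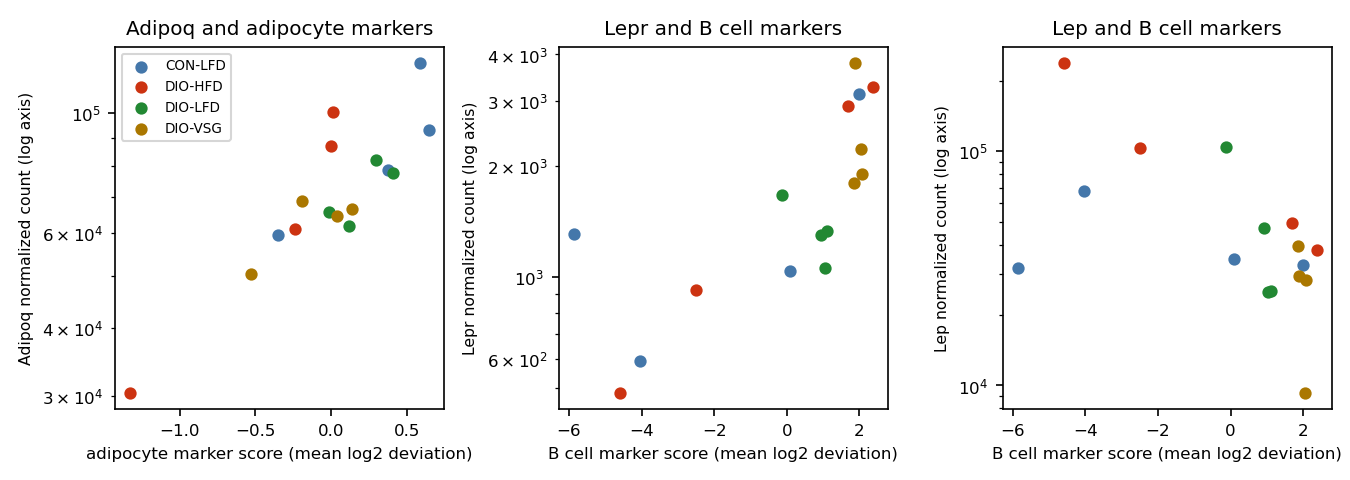
Normalized counts (log axis) of Adipoq against the adipocyte marker score, and of Lepr and Lep against the B cell marker score, with 1 point per library colored by group. DIO-HFD replicate 1 lies far left at an adipocyte score of -1.33, and the libraries of B cell score -2.49 or lower have 1303 or fewer Lepr counts.

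Genes around the members were followed in lists of partners. Of 13 genes of leptin signaling, 0 passed adjustment in DIO-HFD against CON-LFD, 2 were higher at an unadjusted P below 0.05 (5.23% of all genes) and the median log2 difference was 0.06, against 0.02 over all genes. These were Socs3, a feedback inhibitor of cytokine receptors (0.59, limma adjusted P = 0.282), and Pias3, an inhibitor of STAT3 (0.22, limma adjusted P = 0.279). Of 10 genes for adiponectin receptors, binding, secretion and downstream effectors, 3 were lower at that limit (7.66% of all genes) and 0 passed adjustment. A difference above 0 was seen in 5 of the 10, with a median of 0.02. The lower genes included 2 downstream effectors. They were Ppara, a receptor driving fatty acid oxidation (-2.05, limma adjusted P = 0.25), and Prkaa2, a catalytic subunit of AMPK (-0.79, limma adjusted P = 0.247). Without the 4 libraries of low B cell score, 1 leptin signaling gene was higher and 2 genes of the adiponectin list were lower at that limit (3.11% and 4.43% of all genes in that fit). Socs3 was then at 0.44, Pias3 at 0.26, Ppara at -1.67 and Prkaa2 at -0.87.

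The list around Nampt held 13 genes of NAD salvage and use, which include NAD-consuming enzymes such as Sirt1 and Parp1. Of these, 2 were lower in DIO-HFD than in CON-LFD at an unadjusted P below 0.05 (7.66% of all genes), 0 passed adjustment and the median was -0.06. Nmnat3, which carries out the step after Nampt in NAD synthesis, had mean counts of 638 ± 70 in CON-LFD and 486 ± 55.6 in DIO-HFD (-0.39, limma adjusted P = 0.229). Of 11 retinol transport and retinoic acid genes tested, 2 were lower in DIO-VSG than in DIO-HFD at that limit (8.12% of all genes), 0 past adjustment, with 3 of 11 above 0 and a median of -0.22. The retinal dehydrogenase Aldh1a1 had means of 6974 ± 3153 and 2686 ± 1422 (-1.42, limma adjusted P = 0.246). Of 3 chemerin receptors, 2 were lower at that limit in the same comparison (8.12% of all genes), with 0 past adjustment, 0 of 3 above 0 and a median of -0.54. They were Ccrl2 (-0.54, limma adjusted P = 0.274) and Gpr1 (-0.91, limma adjusted P = 0.354). The apelin receptor Aplnr had means of 2677 ± 1446 in DIO-HFD and 1026 ± 409 in DIO-VSG (-1.33, limma adjusted P = 0.317). Of 4 resistin family and receptor genes, 2 were lower at that limit in the same comparison (8.12% of all genes) and 0 passed adjustment, with 1 of 4 above 0 and a median of -0.25. Among them was Retnla (-1.77, limma adjusted P = 0.335). In DIO-LFD against DIO-HFD, 0 genes of the retinol, chemerin, apelin and resistin lists were past that limit, against 8.53% of all genes. In DIO-HFD against CON-LFD, 1 gene of the retinol list and 1 of the resistin list were higher at it (5.23% of all genes). There, 0 genes of the chemerin and apelin lists were past it in either direction. Without the 4 libraries of low B cell score, no gene of NAD salvage and use was lower at that limit in DIO-HFD than in CON-LFD. In DIO-VSG against DIO-HFD the only gene of the retinol, chemerin, apelin and resistin lists lower at it was Retnla (-1.44), where 2.48% of all genes were lower. Nmnat3 was then at -0.26, Aldh1a1 at -0.83, Ccrl2 at -0.32, Gpr1 at -0.60 and Aplnr at -0.71.

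Of 25 other adipokines, 10 were lower and 1 higher in DIO-VSG than in DIO-HFD at an unadjusted P below 0.05, with a median log2 difference of -0.59 against 0.02 over all genes. Among all genes 8.12% were lower and 5.05% higher at that limit, and 0 of 25 passed adjustment. Without the 4 libraries of low B cell score, 1 was lower and 1 higher at that limit, against 2.48% and 4.47% of all genes in that fit, and the median was -0.33. Between DIO-HFD and DIO-VSG the mean score was -0.74 and 1.96 for B cell markers, 0.36 and -0.49 for stromal progenitors and 0.27 and -0.32 for endothelium, and their part in the counts beyond this was not tested. Sfrp5, a secreted WNT inhibitor of adipocytes, had mean counts of 18299 ± 12939 in DIO-HFD, 2529 ± 1740 in CON-LFD, 4186 ± 4871 in DIO-LFD and 3058 ± 1839 in DIO-VSG. Its DIO-HFD counts were 6451, 32429, 26091 and 8226, the highest again in replicates 2 and 3. The log2 fold change of Sfrp5 in DIO-HFD against CON-LFD was 2.74 (SE 0.78, limma adjusted P = 0.22), and without the libraries of low B cell score it was 2.34 (limma adjusted P = 0.602). Nrg4, a secreted signal from fat to liver, ran the other way, with 2165 ± 785 in DIO-HFD and 5680 ± 2174 in CON-LFD (-1.38, SE 0.31, limma adjusted P = 0.167), or -1.14 without those libraries (limma adjusted P = 0.602). Against the mean of the low-fat groups, 8 of the 25 were higher and 1 lower in DIO-HFD, where 4.98% and 6.66% of all genes were, and without those libraries 3 were higher and 1 lower (4.00% and 7.69% of all genes in that fit).

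**Figure D5:**
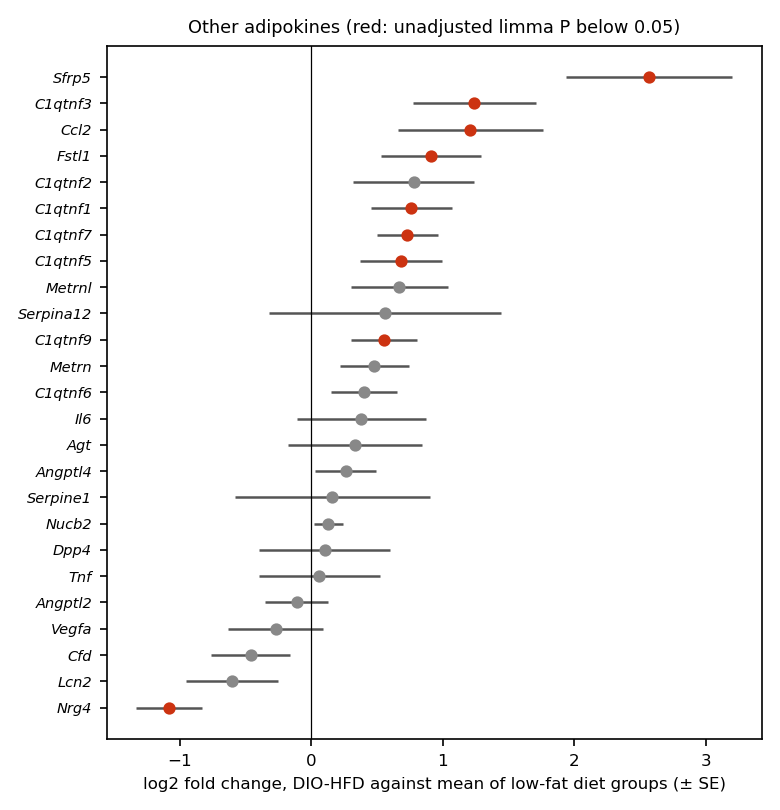
Log2 fold changes ± SE of 25 other adipokines in DIO-HFD against the mean of the 3 low-fat diet groups, sorted by size, with red points at an unadjusted limma P below 0.05. Sfrp5 lies highest at 2.57 and Nrg4 lowest at -1.08, and 20 of the 25 lie above 0.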

How the data were processed

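Total RNA of the contralateral mammary fat pad was sequenced in 16 libraries, 4 per group, with groups and replicate numbers from the sample titles. Each library has its own number in the labels, taken as that of 1 mouse, and P values measure the spread between these libraries. The deposited table, named as normalized counts, held log2 values (5.36 to 21.85) made by the authors with the variance-stabilizing transformation of DESeq2, whereas the planned analysis assumed normalized counts. The transformation was inverted, and whole reads were recovered for 100.0% of values (within 0.05 read). The submitters' processing notes name TopHat2 2.0.7, HTSeq 0.5.3p9, DESeq2 and the mm10 build, while the methods of the study name STAR and salmon on GRCm38, and the difference could not be settled. Either way, genes with few reads had been removed by the authors, and the lowest gene total was 10 reads. Size factors were 0.9036 to 1.2204, and 0 columns lacked a sample.

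Genes reaching 10 normalized counts in 4 or more libraries (21218) entered 1 limma-trend model (version 3.58.1 of limma under R 4.3.3), with group as its term and a pseudocount of 1 before the log2. Tests were two-sided and adjusted by Benjamini-Hochberg over all genes within each comparison, and the script was tested on simulated data. All 9 members passed the filter. Because of the pseudocount, fold changes of weakly expressed genes are understated, and comparisons that share DIO-HFD are not independent.

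Members were named with all group values, and fold changes with adjusted P values were given where the unadjusted P, stated only as above or below 0.05, was below it or groups did not overlap. For each list the genes of smallest P in a comparison served as examples. For Lep, Apln, Adipoq, Rbp4 and Retn the 3 genes of highest Pearson r were named, predicted genes left out. The members and lists were chosen with earlier results of these data known. Gene positions and exon lengths came from GENCODE M21 (GRCm38) and promoters from RefSeq (GRCm38.p6), which matched 8 of 9 members. Alternatives were another pseudocount, no filter, the deposited log2 values, quantile normalization, limma-voom on recovered reads, array weights, covariates of adipocyte or B cell score, a replicate block, the groups compared only and each library left out. Omission of the 4 libraries of lowest B cell score was chosen after seeing the data. Any removal of the lymph node in the fat pad is not given in the sources used here.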

Additional observations from a re-analysis of the deposited data

Results flagged for a closer look

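Among 36 sets of 4 libraries (9 members in 4 groups), 2 held a library far from the other 3, and chance places about 1 in 20 sets there. Lep in CON-LFD replicate 4 was at 67714 normalized counts, its gap to the nearest library being 0.887 of the range of the group. Adipor2 in DIO-LFD replicate 1 was at 84446, with a gap of 0.896 of the range. CON-LFD replicate 4 also had a low B cell score (-4.03) and a high skeletal muscle score (4.0), and DIO-LFD replicate 1 had the highest hepatocyte score (3.11). The part of these scores was not tested.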

How the results depend on the processing

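The 16 log2 fold changes of members given for an unadjusted P below 0.05 or for groups without overlap kept their direction under the alternatives run. Among the other values named, Lep kept its sign but not its size in DIO-HFD against CON-LFD (0.37 to 1.79), DIO-LFD against DIO-HFD (-1.59 to -0.04) and DIO-VSG against DIO-LFD (-1.09 to -0.39), whereas Lep in DIO-VSG against CON-LFD (up to 0.07), Lepr in the same comparison (down to -0.15) and Retn in DIO-HFD against CON-LFD (up to 0.01) turned in 1 of 27 alternatives, and Lepr in DIO-VSG against DIO-HFD in 3 (down to -0.41). In limma-trend 0 members passed the adjusted threshold in each of the 8 comparisons, and this count was 0 for each library left out in turn. Array weights, which gave DIO-HFD replicate 4 a weight of 10.9 and DIO-HFD replicate 3 one of 0.222, called 2 members in DIO-HFD against CON-LFD, 3 in DIO-VSG against DIO-HFD, 3 in DIO-LFD against DIO-HFD, 4 in DIO-HFD against the mean of the low-fat diet groups and 4 in the test of any difference. Under these weights the Apln difference in DIO-HFD against CON-LFD was 0.45 and in DIO-VSG against DIO-HFD -1.22. The adipocyte score as a covariate called 2 members in DIO-VSG against DIO-HFD and 1 in DIO-HFD against the mean of the low-fat diet groups (Apln, adjusted P = 0.0386), where limma-voom also called 1. The cause of these moves was not tested. Over all 21218 genes tested, array weights called 4196 in DIO-HFD against CON-LFD instead of 8 and 3739 in DIO-VSG against DIO-HFD instead of 0. They called 1811 in DIO-LFD against DIO-HFD, 4350 against the low-fat mean and 7387 for any difference. The member counts under array weights are to be read beside these large counts. Array weights also called 184 genes in DIO-VSG against DIO-LFD, 53 in DIO-LFD against CON-LFD and 4226 in DIO-VSG against CON-LFD. The adipocyte covariate called 3302 in DIO-VSG against DIO-HFD, 0 in DIO-HFD against CON-LFD, 549 against the low-fat mean and 27 for any difference. The B cell covariate called 17 in DIO-HFD against CON-LFD and 35 against the low-fat mean, where limma-voom called 20. A fit of only the groups compared called 1533 in DIO-VSG against DIO-LFD, and leaving out CON-LFD replicate 3 called 128 in DIO-HFD against CON-LFD and 873 in DIO-VSG against CON-LFD. The 95% interval of Lep in DIO-HFD against CON-LFD, from 4 mice per group, was -0.24 to 2.37.

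With the replicate number as a replicate block, 0 members were called in every comparison, and 1 gene was called in DIO-HFD against CON-LFD and 1 against the low-fat mean. The correlation of same-numbered libraries ranged from -0.609 to 0.534, exceeded 0.1 in 9 of 24 pairs, and 7 of the 16 libraries correlated best with their own number, which is a hint from the data and not the design. The labels give no shared animal or day for a number, so the numbers were not used to pair libraries.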
